A study of Homo sapiens with 18 samples.

Results

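The 10 genes described here are transcriptional outputs and feedback regulators of the RAS-ERK pathway: DUSP6, DUSP5, SPRY2, SPRY4, SPRED1, ETV1, ETV4, ETV5, PHLDA1 and IER3. They were selected by symbol, with earlier results of these data known, and all 10 were found among the 12853 genes of the deposited RNA-seq table. RNA was sequenced from 6 ovarian cancer cell lines that form 3 pairs, with 3 libraries per line and 18 libraries in all. A2780, PEA1 and PEO1 are labelled platinum sensitive, and CP70, PEA2 and PEO4 are their platinum-resistant counterparts. CP70 was derived from A2780 by selection in vitro, and the labels call both endometrial/ovarian cancer cells. PEO1 with PEO4, and PEA1 with PEA2, are lines from high-grade serous ovarian cancer, each pair isolated from a single patient before and after resistance developed. All lines were grown in the same supplemented RPMI-1640 medium, and the labels of these RNA-seq libraries name no drug treatment. Each condition is therefore represented by 1 line in each pair, and a difference between the lines of a pair cannot be told apart from any other difference between those lines. The labels do not say whether the 3 libraries of a line came from separate cultures, so p-values measure only the spread between these libraries, which may be technical.

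Growth factor receptors activate RAS, which passes the signal through the RAF, MEK and ERK kinases to transcription factors in the nucleus. Active ERK induces a characteristic set of genes, several of which act back on the pathway: dual-specificity phosphatases inactivate ERK, Sprouty and SPRED proteins restrain signalling at the level of RAS and RAF, and the ETS factors of the PEA3 family carry the transcriptional response further. Because these transcripts depend on continued signalling in many cell types, their levels are often used as a readout of the pathway, and the pathway is frequently altered in ovarian tumours. ERK activity itself was not measured in these data.

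The libraries held 1344098 to 7067336 reads on the listed genes, so that 3 reads, taken here as the floor of detection, correspond to 0.452 to 2.18 CPM, the read count scaled to library size. These limits cover counting error only. Of 9 markers of ovarian serous epithelium, 8 were at 3 reads or fewer in every A2780 library (all except EPCAM) and 4 in CP70 (CDH1, KRT7, PAX8 and WT1), with summed levels of 1.68 to 2.84 and 91.0 to 96.7 CPM. The defining markers were thus largely absent from A2780. In the other lines at most 1 of the 9 was at the floor (KRT7 in PEA1, MECOM in PEO4), and the summed level was 487 to 652 CPM in PEA1, 3630 to 3863 in PEA2, 6428 to 7449 in PEO1 and 4496 to 6080 in PEO4. CDH1 (0 to 4 reads) and MUC16 (0 to 5 reads) were also close to the floor in PEA1. The highest of the 9 in that line was PAX8 (mean log2 CPM 8.35). The leukocyte gene PTPRC and the endothelial gene CDH5, the only genes of their marker lists (4 and 3 genes) in the table, were at or below 3 reads in all lines except PEA2, where they reached 20.1 to 25.1 and 25.3 to 36.1 CPM. Summed fibroblast markers (4 of 5 in the table) lay at 509 to 719 CPM in A2780, 855 to 993 in CP70, 366 to 447 in PEA1, 3.17 to 4.12 in PEA2, 2.94 to 7.08 in PEO1 and 67.7 to 76.5 in PEO4. COL3A1, DCN and LUM were at 3 reads or fewer in PEA1, PEA2 and PEO1, where the sum rested on COL1A1. In PEO4 DCN and LUM were at that floor. In A2780 and CP70 COL3A1 was by far the highest (mean log2 CPM 9.28 and 9.77), followed by COL1A1 in A2780 (2.71) and DCN in CP70 (4.56). Mesothelial markers (3 of 3) summed to 0 to 1.40 CPM in A2780, 6.72 to 7.11 in CP70, 3.45 to 10.7 in PEA1, 64.2 to 86.0 in PEA2, 273 to 294 in PEO1 and 378 to 388 in PEO4. Marker levels thus differed between the lines of every pair, and their part in the results below was not tested.

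Promoter sequences are shown for 3 members: DUSP6, which changed in every pair, ETV1, which was higher in the resistant line of every pair, and PHLDA1, which had the largest change. They come from a RefSeq table that held 13 promoters for 6 of the 10 members and none for DUSP5, ETV4, ETV5 and IER3. DUSP5 was also higher in the resistant line of every pair, and IER3 also changed in every pair. The sequences were placed on GRCh37 by an exact match. Each covers the 250 bases before the annotated start on the gene's own strand, at chr12:89746279-89746528 for DUSP6, chr7:14031051-14031300 for ETV1 and chr12:76425557-76425806 for PHLDA1, all on the minus strand. Capitals mark a capicua octamer, the sequence bound by CIC, a repressor that ERK signalling inactivates.
DUSP6: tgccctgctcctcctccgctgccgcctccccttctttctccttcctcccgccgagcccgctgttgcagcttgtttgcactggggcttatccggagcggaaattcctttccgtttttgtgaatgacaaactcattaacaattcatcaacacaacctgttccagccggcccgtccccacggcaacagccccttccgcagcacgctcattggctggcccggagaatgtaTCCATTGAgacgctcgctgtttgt
ETV1: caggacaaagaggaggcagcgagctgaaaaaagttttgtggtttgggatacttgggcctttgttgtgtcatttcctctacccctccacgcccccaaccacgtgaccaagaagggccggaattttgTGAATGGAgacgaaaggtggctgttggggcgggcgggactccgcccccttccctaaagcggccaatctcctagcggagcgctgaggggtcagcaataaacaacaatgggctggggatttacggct
PHLDA1: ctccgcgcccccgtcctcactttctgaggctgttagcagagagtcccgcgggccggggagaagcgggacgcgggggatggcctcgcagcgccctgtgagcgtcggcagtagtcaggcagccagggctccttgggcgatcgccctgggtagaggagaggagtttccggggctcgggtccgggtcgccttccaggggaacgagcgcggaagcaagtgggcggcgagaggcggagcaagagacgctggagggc
The octamer was searched on both strands in the forms TGAATGAA, TGAATGGA, TCAATGAA and TCAATGGA. It was found in the promoter of DUSP6, where TCAATGGA lies on the opposite strand and the match begins 24 bases before the start, and in 1 of the ETV1 promoters, where TGAATGGA begins 125 bases before the start. That is 2 of the 13 promoters searched for the members, 6 of which belong to ETV1, and 3.18% of all 35116 promoters held a match in the same window. The letters of an ETS site (CCGGAAGT, in 3.42% of all promoters), a cyclic AMP response element (TGACGTCA, 1.65%) and an AP-1 site (TGACTCA or TGAGTCA, 4.2%) were in none of the 6 members' windows. A match describes the sequence only, and whether CIC acts at either site was not tested. The 2 genes that share the octamer moved in opposite directions in the A2780 pair and in the same direction in the others, as described below.

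In the pair derived in vitro, 9 of the 10 genes differed between CP70 and A2780 at an FDR below 0.05, a call made for 39.9% of all 12853 genes. They did so in opposite directions. DUSP5, ETV1, PHLDA1 and IER3 were higher in CP70 (4 genes, against 22.2% of all genes), and DUSP6, SPRY2, SPRY4, SPRED1 and ETV4 were lower (5 genes, against 17.7%). Of the 5 phosphatase, Sprouty and SPRED genes, all except DUSP5 were lower in the resistant line. PHLDA1, ETV1 and DUSP6 also passed the study's own fold threshold, |log2FC| above 2, as 9.06% of all genes did. Across the 10 genes the median log2FC was -0.33 and the median size of change was 1.20, against -0.02 and 0.42 over all genes.

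The PEA pair had 7 of the 10 genes called, with 61.9% of all genes called. DUSP6, DUSP5, ETV1, ETV4 and IER3 were higher in PEA2 (5 genes, against 32.5%), and SPRY4 and SPRED1 were lower (2 genes, against 29.4%). This share is close to that of the whole table, in which most genes differed between PEA1 and PEA2. DUSP5 and IER3 passed the fold threshold, which 14.1% of all genes did. The median log2FC was 0.69 and the median size of change 1.08, against 0.01 and 0.68 over all genes.

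Between PEO1 and PEO4, 7 of the 10 genes were called, against 41.5% of all genes. DUSP6, DUSP5, SPRY2, ETV1, ETV5 and PHLDA1 were higher in PEO4 (6 genes, against 19.6%), and IER3 alone was lower (1 gene, against 21.9%). ETV1, PHLDA1 and IER3 passed the fold threshold, against 6.22% of all genes. Here the median log2FC was 0.50 and the median size of change 0.79, against -0.02 and 0.43 over all genes.

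Over the 3 pairs, 23 of the 30 combinations of gene and pair were called. DUSP6, DUSP5, ETV1 and IER3 were called in all 3 pairs (4 genes, against 12.7% of all genes). DUSP5 and ETV1 alone were called in the same direction in all 3, higher in the resistant line each time (2 genes, against 2.8% of all genes). DUSP6, SPRY2, ETV4 and IER3 had calls of opposite direction in different pairs. For SPRY2 this rests on its call in the PEO pair and for ETV4 on its call in the A2780 pair, both lost under some alternatives given below. The plot of expression by library and that of the changes show these patterns.

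**Figure D1:**
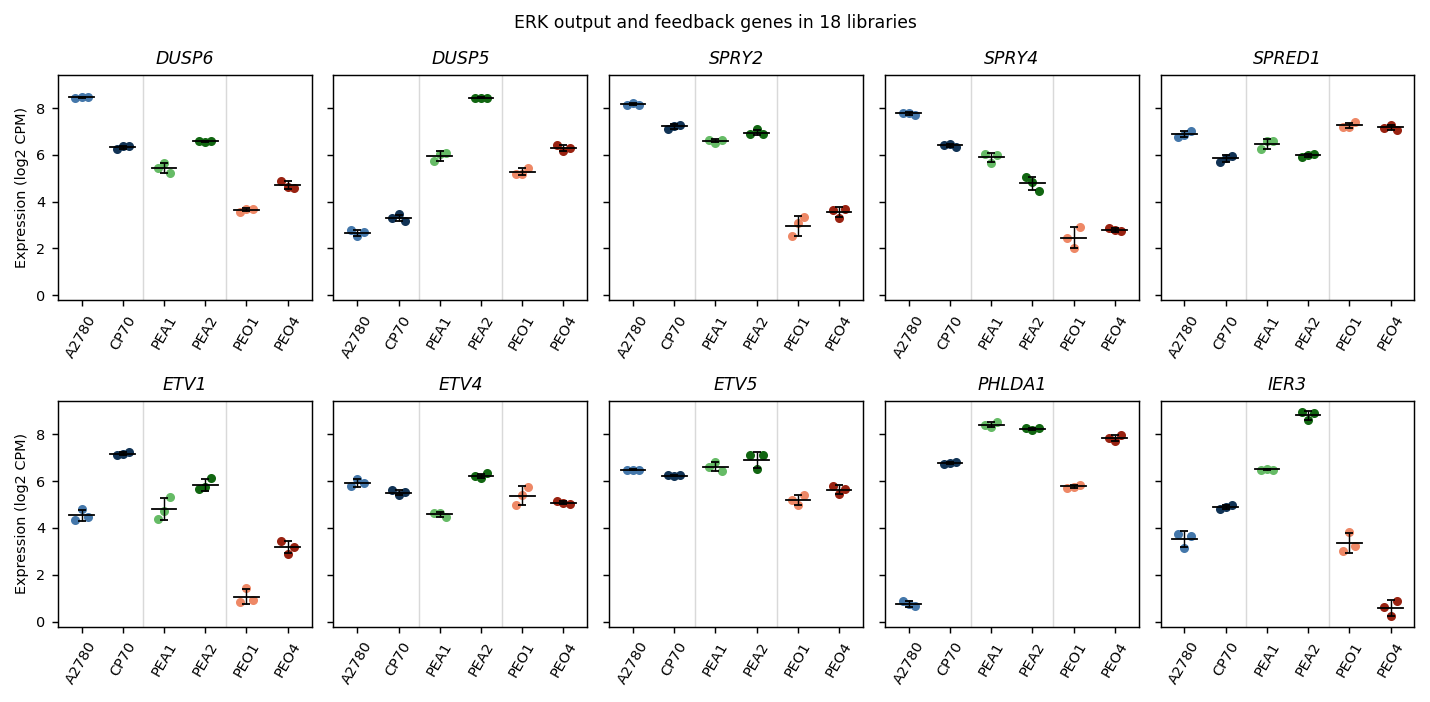
Expression of the 10 genes in each of 18 libraries (vertical axis, log2 CPM), with the 3 libraries of each of the 6 lines as points and the mean ± SD as bars. Replicates lie close together relative to the distance between the extreme lines, most of all for PHLDA1, where A2780 lies between 0.65 and 0.86 and every other library at 5.71 or above. Some lines that neighbour in level overlap for SPRY2, SPRY4, SPRED1, ETV1, ETV4, ETV5 and IER3.

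**Figure D2:**
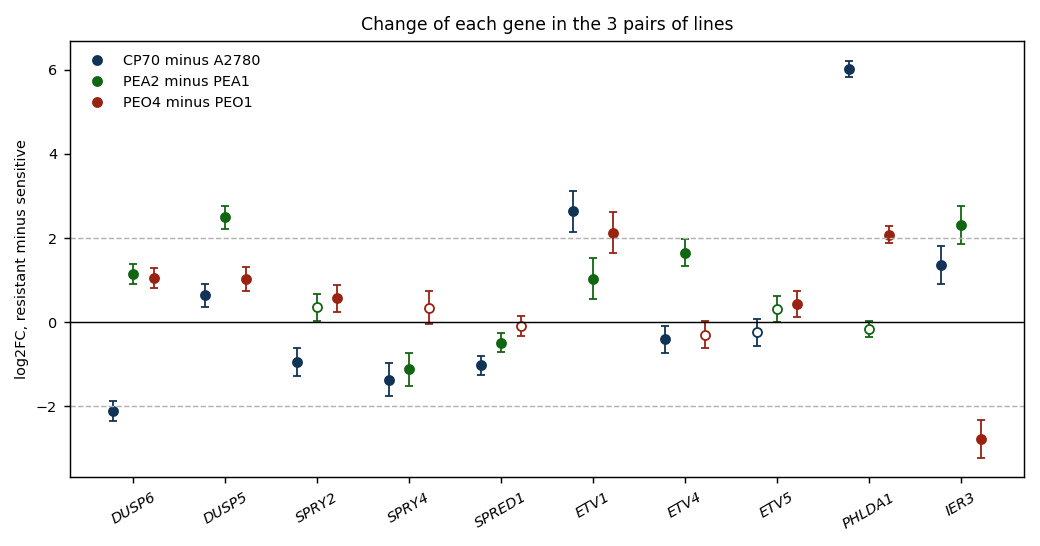
Change of each gene in each pair (vertical axis, log2FC, resistant minus sensitive, with 95% confidence intervals from limma). Filled points passed an FDR below 0.05, open points did not, and dashed lines mark a log2FC of 2 and -2; DUSP6 is at -2.12 in the A2780 pair and at 1.14 and 1.05 in the others.

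DUSP6 (chr12:89741012-89746278, minus strand) encodes a cytoplasmic phosphatase that acts selectively on ERK and is among the most widely used readouts of the pathway. In the A2780 libraries it stood at a log2 CPM of 8.41, 8.49 and 8.46, and in CP70 at 6.26, 6.37 and 6.37. The 2 lines were far apart, with CP70 lower by a log2FC of -2.12 (SE 0.11, FDR = 6.27e-12, limma), that is, A2780 held 4.35 times as much. The other pairs ran the opposite way. PEA1 stood at 5.43, 5.65 and 5.24 and PEA2 at 6.60, 6.55 and 6.59, a log2FC of 1.14 (SE 0.11, FDR = 4.96e-08). PEO1 stood at 3.57, 3.71 and 3.69 and PEO4 at 4.90, 4.64 and 4.57, a log2FC of 1.05 (SE 0.11, FDR = 4.10e-07). In neither of these pairs did the lines overlap, and the resistant line was 2.20 and 2.07 times as high. From the highest to the lowest, the lines ran A2780, PEA2, CP70, PEA1, PEO4 and PEO1, with no overlap between neighbours and 27.8-fold between the extremes.

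DUSP5 (chr10:112257665-112271291, plus strand) encodes the nuclear counterpart, a phosphatase that binds and inactivates ERK in the nucleus. Its log2 CPM was 2.78, 2.54 and 2.70 in A2780 and 3.28, 3.46 and 3.18 in CP70, low in both lines and without overlap (log2FC 0.64, SE 0.13, FDR = 0.000629). The largest change was in the PEA pair, from 5.72, 6.04 and 6.09 in PEA1 to 8.43, 8.45 and 8.45 in PEA2 (log2FC 2.49, SE 0.13, FDR = 4.93e-12). PEA2 thus held 5.63 times as much as PEA1, and its 3 libraries were almost equal. PEO1 gave 5.17, 5.20 and 5.44 and PEO4 gave 6.43, 6.17 and 6.28 (log2FC 1.02, SE 0.13, FDR = 3.62e-06), again with every PEO4 library above every PEO1 library. The order of levels was PEA2, PEO4, PEA1, PEO1, CP70 and A2780, with 54.7-fold between the extremes and no overlapping neighbours. A2780, the line with the most DUSP6, was therefore the line with the least DUSP5.

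SPRY2 (chr13:80910111-80915261, minus strand) encodes a Sprouty protein, an inhibitor of receptor signalling to ERK. A2780 had log2 CPM values of 8.14, 8.21 and 8.15 and CP70 7.11, 7.26 and 7.30. All CP70 libraries lay below those of A2780 (log2FC -0.94, SE 0.16, FDR = 5.59e-05). In the PEA pair the values were 6.64, 6.53 and 6.62 against 6.88, 7.09 and 6.87 in PEA2. The lines did not overlap, but the log2FC of 0.35 (SE 0.16) missed the threshold (FDR = 0.0589), and it passed with each pair fitted alone (FDR = 0.0242), with voom weights (FDR = 0.0109) and with 2 reads added to each count (FDR = 0.0478), and also without PEO1 replicate 1 (FDR = 0.0143) or 3 or PEO4 replicate 2, which enter only the shared estimate of the spread. PEO1 and PEO4 were far below the other lines, at 2.51, 3.07 and 3.35 and at 3.66, 3.30 and 3.68. These ranges overlapped, and the call in that pair (log2FC 0.57, SE 0.16, FDR = 0.00637) was lost with voom weights (FDR = 0.114), with each pair fitted alone (FDR = 0.0892) and without PEO1 replicate 1 (0.34, FDR = 0.0513).

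SPRY4 (chr5:141689992-141706020, minus strand) encodes a second Sprouty inhibitor, and its span overlaps SPRY4-AS1 on the opposite strand. Its log2 CPM was 7.80, 7.80 and 7.72 in A2780 and 6.44, 6.45 and 6.32 in CP70. The CP70 libraries were lower without overlap (log2FC -1.37, SE 0.19, FDR = 5.20e-06). PEA1 had 6.02, 5.67 and 5.99 and PEA2 had 5.04, 4.83 and 4.47. SPRY4 was thus lower in PEA2 (log2FC -1.12, SE 0.19, FDR = 3.31e-05), in the same pair in which DUSP6 and DUSP5 were higher. PEO1 at 2.43, 2.04 and 2.93 and PEO4 at 2.90, 2.77 and 2.74 overlapped (log2FC 0.34, SE 0.19, FDR = 0.160), with a 95% interval of -0.05 to 0.73 for the difference, and without PEO1 replicate 3 the difference passed the threshold (0.57, FDR = 0.0149). The line order, A2780, CP70, PEA1, PEA2, PEO4 and PEO1, placed both lines of each pair next to each other, over a 39.6-fold range.

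SPRED1 (chr15:38545037-38649450, plus strand) encodes a partner of neurofibromin (NF1) that brings it to the membrane to switch RAS off. Its levels spanned only 2.66-fold between the extreme lines, the narrowest range of the 10 genes. In A2780 the log2 CPM was 6.76, 6.85 and 7.02 and in CP70 5.70, 5.87 and 5.97 (log2FC -1.03, SE 0.11, FDR = 2.59e-07). PEA1 had 6.23, 6.59 and 6.58 and PEA2 5.92, 5.98 and 6.05 (log2FC -0.49, SE 0.11, FDR = 0.000913). Both resistant lines were lower without overlap. PEO1 at 7.20, 7.18 and 7.39 and PEO4 at 7.17, 7.28 and 7.07 overlapped and were the highest of all lines, with a log2FC of -0.09 (FDR = 0.573) and a 95% interval of -0.32 to 0.15. The lines with the least SPRY2 and SPRY4 were thus those with the most SPRED1.

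ETV1 (chr7:13930854-14031050, minus strand) is the first of the 3 PEA3-family ETS transcription factors. It had 4.34, 4.81 and 4.47 log2 CPM in A2780 and 7.10, 7.17 and 7.25 in CP70. CP70 was the highest of all lines and stood 6.20-fold above A2780 (log2FC 2.63, SE 0.23, FDR = 1.28e-08). PEA1 gave 4.37, 4.74 and 5.32 and PEA2 gave 5.67, 5.73 and 6.13, without overlap (log2FC 1.03, SE 0.23, FDR = 0.000734). PEO1 had 0.84, 1.42 and 0.91 and PEO4 3.45, 2.91 and 3.19 (log2FC 2.12, SE 0.23, FDR = 4.24e-07). PEO1 was close to the floor, with 5, 7 and 12 reads in its libraries. Pooled over the line, 75 reads in PEO4 against 24 in PEO1 gave a ratio of scaled reads of 4.67 (95% exact interval 2.92 to 7.74, counting error only), and quantile normalization raised the log2FC to 3.28. A2780 and PEA1 overlapped, and no other neighbours in the order of lines did.

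ETV4 (chr17:41605212-41656988, minus strand, overlapping DHX8 on the opposite strand) had a single large change. It stood at 4.65, 4.62 and 4.47 log2 CPM in PEA1, the lowest line, and at 6.21, 6.14 and 6.33 in PEA2, the highest. The difference was 3.13-fold (log2FC 1.65, SE 0.15, FDR = 1.71e-08). A2780 had 5.77, 6.10 and 5.91 and CP70 5.62, 5.41 and 5.52. These lines did not overlap, and the small decrease (log2FC -0.41, SE 0.15, FDR = 0.0402) was not called without the variance trend (FDR = 0.0527) or in 5 of the fits that left out a library, those without A2780 replicate 2 (-0.33, FDR = 0.146) or 3 or any replicate of CP70. PEO1 at 4.98, 5.42 and 5.76 and PEO4 at 5.16, 5.08 and 5.01 overlapped (log2FC -0.30, SE 0.15, FDR = 0.133), and the difference passed without PEO1 replicate 1 (-0.50, FDR = 0.00928).

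ETV5 (chr3:185764103-185828107, minus strand) moved least of the ETS genes. It overlaps DGKG on the same strand and ETV5-AS1 on the other, so reads where they overlap could not be assigned with certainty. The values were 6.49, 6.50 and 6.46 log2 CPM in A2780 and 6.24, 6.23 and 6.25 in CP70, which did not overlap but differed by a log2FC of only -0.25 (SE 0.15, FDR = 0.209, or 0.0301 with the pair fitted alone). PEA1 at 6.62, 6.81 and 6.42 and PEA2 at 7.13, 6.53 and 7.11 overlapped (log2FC 0.31, SE 0.15, FDR = 0.0817), and the difference passed without PEA1 replicate 2 (0.40, FDR = 0.0406) or PEA2 replicate 2 (0.50, FDR = 0.00350). PEO1 at 5.20, 5.0 and 5.43 lay below PEO4 at 5.80, 5.44 and 5.68 by a narrow margin. That increase was called (log2FC 0.43, SE 0.15, FDR = 0.0256), but not with voom weights (FDR = 0.0650) nor in 4 of the fits that left out a library of the pair, PEO1 replicate 1 or 2 or PEO4 replicate 1 or 3, where the FDR ran up to 0.129.

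PHLDA1 (chr12:76419227-76425556, minus strand, overlapping PHLDA1-AS1 on the opposite strand) encodes a pleckstrin homology-like protein that is induced by growth factor signalling. Its change in the A2780 pair was the largest of the 30 measured. The log2 CPM was 0.86, 0.75 and 0.65 in A2780, from only 6, 6 and 3 reads, and 6.73, 6.78 and 6.80 in CP70. A gene nearly undetected in the sensitive line was thus well expressed in its derivative (log2FC 6.02, SE 0.10, FDR = 8.68e-20). The ratio of scaled reads, 1535 in CP70 against 15 in A2780, was 70.2 (95% exact interval 42.4 to 126, counting error only). The log2FC was 4.88 under quantile normalization and 5.65 with 2 reads added to each count. PEA1 at 8.39, 8.32 and 8.53 and PEA2 at 8.28, 8.20 and 8.26 were the highest lines and lay side by side without overlap. Their log2FC of -0.16 (SE 0.10, FDR = 0.143) had a 95% interval of -0.37 to 0.04, and quantile normalization alone brought a call (-0.37, FDR = 0.000980). PEO1 had 5.71, 5.77 and 5.85 and PEO4 7.85, 7.73 and 7.98, a 4.22-fold increase (log2FC 2.08, SE 0.10, FDR = 3.45e-12).

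IER3 (chr6:30710976-30712325, minus strand, overlapping HCG20 and IER3-AS1 on the opposite strand) is an immediate early gene that prolongs ERK phosphorylation and affects cell survival. It was higher in 2 resistant lines and lower in 1. A2780 had 3.76, 3.15 and 3.67 log2 CPM and CP70 4.81, 4.89 and 4.97 (log2FC 1.36, SE 0.21, FDR = 2.96e-05). PEA1 had 6.50, 6.53 and 6.47 and PEA2 8.94, 8.60 and 8.90, a 4.96-fold increase (log2FC 2.31, SE 0.21, FDR = 1.45e-08). In the PEO pair the direction turned, with 3.0, 3.82 and 3.24 in PEO1 and 0.64, 0.22 and 0.87 in PEO4 (log2FC -2.78, SE 0.21, FDR = 3.50e-09). PEO4 held only 4, 3 and 4 reads, so the size of this decrease is imprecise. The pooled ratio of PEO1 to PEO4 was 7.60 (125 against 11 reads, 95% exact interval 4.10 to 15.6, counting error only). The log2FC was -3.94 under quantile normalization and -2.38 with 2 reads added. IER3 spanned 301-fold from PEA2 to PEO4, the widest range of the 10 genes, and of the neighbours in the order of lines A2780 and PEO1 alone overlapped.

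Since genes cannot be compared by CPM, their levels were also expressed per kilobase of annotated exon (log2 RPKM, mean of 3 libraries). On this scale DUSP6 (6.51) and SPRY2 (6.48) were the highest of the 10 in A2780, and PHLDA1 (-1.81) was the lowest. IER3 led in PEA1 (6.07) and in PEA2 (8.38), followed by DUSP5 (7.10) in PEA2. In CP70 the levels of IER3 (4.46), DUSP6 (4.39) and PHLDA1 (4.21) were close to each other, below SPRY2 (5.54). SPRED1 led in PEO1 (4.31), where ETV1 was lowest (-2.20), and PHLDA1 in PEO4 (5.29), where ETV1 (-0.08), SPRY4 (0.09) and IER3 (0.14) were the lowest. The leading gene thus differed between the 3 sensitive lines. The exon lengths come from the GENCODE annotation of GRCh37, not from the gene models the authors counted on.

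Whether a gene's change differed between pairs was tested directly, in the same fit. The change in the PEA pair differed from that in the A2780 pair for 9 of the 10 genes, against 57.5% of all genes. Among the 9, ETV5 (0.55, FDR = 0.0314), was not called with quantile normalization (0.40, FDR = 0.112), without the variance trend (FDR = 0.0548) or in 8 of 18 fits that left out a library. The exception was SPRY4, lower in both resistant lines (difference 0.25, SE 0.26, FDR = 0.437). Between the PEO pair and the A2780 pair, 7 genes differed (47.5% of all genes), and DUSP5 (0.38, FDR = 0.103), ETV1 (-0.51, FDR = 0.216) and ETV4 (0.11, FDR = 0.705) did not pass. With quantile normalization DUSP5 passed (0.72, FDR = 0.00209), and the value of ETV1 turned to 0.67, still not called. Between the PEA pair and the PEO pair, 7 genes differed (58.7% of all genes), and DUSP6 (0.09, SE 0.16, FDR = 0.650), SPRY2 (-0.22, SE 0.22, FDR = 0.415) and ETV5 (-0.12, SE 0.21, FDR = 0.634) did not. Of the 7, SPRED1 (-0.40, FDR = 0.0377) was not called without the variance trend (FDR = 0.0613) or in 8 of 18 fits that left out a library (FDR up to 0.0935). The opposite change of DUSP6 in the A2780 pair was seen against both serous pairs, with differences from the A2780 pair of 3.26 (SE 0.16, FDR = 2.23e-12) and 3.17 (SE 0.16, FDR = 4.93e-12). The 3 contrasts share libraries and are not independent of each other.

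The 10 genes did not rise and fall together. Over the means of the 6 lines, 28 of the 45 pairs of genes had a positive Pearson r and 17 a negative one, from -0.92 to 0.95, with 5 pairs above 0.8. SPRY2 and SPRY4 were most alike (r = 0.95), and DUSP6 followed both (0.91 and 0.89). SPRED1 and ETV1 were the most opposed (-0.92), and DUSP6 and PHLDA1 ran against each other (-0.59). These values describe 6 lines only, which fall into 3 related pairs, and carry no test. Averaged over the 10 genes after centring each on its own mean, the log2 level was highest in PEA2 (1.31 ± 0.06, SD, n = 3) and lowest in PEO1 (-1.33 ± 0.17), with CP70 (0.40 ± 0.04), PEA1 (0.56 ± 0.06), A2780 (-0.05 ± 0.0043) and PEO4 (-0.88 ± 0.12) between them. The mean log2FC of the 10 genes was 0.45, 0.75 and 0.44 in the A2780, PEA and PEO pairs. Leaving out PHLDA1, a choice made after its values were seen, gave -0.17, 0.85 and 0.26, so the direction in the A2780 pair rested on PHLDA1, which had 3 to 6 reads in A2780. Among 10818 other genes with a mean log2 value above 2, those whose level over the 18 libraries was most like that of DUSP6 were HLTF (r = 0.97), FHOD1 (0.95), PYGL (0.95), RPL34 (0.95) and ANKRD11 (0.94). Those most like the average of the 10 were KDELR2 (0.97), ALG2 (0.97), IGF2BP3 (0.96), ATP6V0D1 (0.96) and USP10 (0.95). These r values also describe 6 lines only, are the highest picked from 10818 genes, and carry no test.

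Other genes of the pathway were taken from lists written for it. In the A2780, PEA and PEO pairs 39.9%, 61.9% and 41.5% of all genes were called, and the counts of each list below stand against these shares, with no test of the list. Of the 8 other MAP kinase phosphatases, 4 were higher in CP70 and 0 lower, 4 were higher and 1 lower in PEA2, and 1 was higher and 2 lower in PEO4, with median log2FC of 0.74, 0.72 and 0.11. Called genes were thus 4, 5 and 3 of 8. DUSP8, which acts mainly on the stress kinases JNK and p38, was at or under the floor in A2780 and PEA1 and at least 3.17-fold and 7.65-fold higher in their resistant lines. In the PEO pair it was lower (log2FC -2.65, FDR = 0.000259, with 5 to 9 reads in PEO4). DUSP4, a nuclear ERK phosphatase, was also lower in PEO4, at 3.62, 3.68 and 4.30 log2 CPM against 6.14, 6.36 and 6.41 in PEO1 (log2FC -2.43, FDR = 9.17e-06), while DUSP5 and DUSP6 were higher there. DUSP9, another ERK phosphatase, was higher in CP70 (2.65, FDR = 0.000536), and DUSP16 (1.42, FDR = 2.38e-08) and DUSP7 (1.30, FDR = 3.69e-06) were higher in PEA2.

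Only 2 of the 4 other Sprouty and SPRED genes were in the table, SPRY1 and SPRED2. Neither was called in the A2780 pair, and 1 of the 2 was higher in each of the other resistant lines, SPRED2 in PEA2 (log2FC 0.36, FDR = 0.0286) and SPRY1 in PEO4. SPRY1 went from -1.03, 0.69 and 1.02 log2 CPM in PEO1 to 3.62, 2.97 and 3.58 in PEO4 (log2FC 3.16, FDR = 2.12e-07, with 1 to 13 reads in PEO1). It stood at 8.06 on average in A2780 and 8.05 in CP70, the pair in which SPRY2 and SPRY4 differed.

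Of 9 other ERK-induced genes in the table (of 12 listed), 6 were higher and 0 lower in CP70, 5 were higher and 1 lower in PEA2, and 2 were higher and 1 lower in PEO4. Called genes were 6, 6 and 3 of 9, against 39.9%, 61.9% and 41.5% of all genes. Their median log2FC was 0.36, 1.15 and 0.14, against -0.02, 0.01 and -0.02 over all genes. EGR1, a zinc finger factor and classical immediate early gene, was higher in every resistant line, with log2FC of 1.94 (FDR = 3.42e-09) in CP70, 1.15 (FDR = 3.06e-06) in PEA2 and 2.61 (FDR = 1.24e-10) in PEO4. FOS, a subunit of AP-1, was higher in PEA2 (2.19, FDR = 2.55e-05, with 2 to 6 reads in PEA1) and PEO4 (1.94, FDR = 0.000193) and stood at -0.65 in the A2780 pair, short of the threshold (FDR = 0.160). FOSL1, the FRA1 subunit of AP-1, went from 0.33, 1.29 and 0.16 log2 CPM in A2780 to 5.26, 5.15 and 5.39 in CP70 (log2FC 4.67, FDR = 2.79e-13). Like PHLDA1 it was near the floor in A2780, at 2 to 9 reads. Its log2FC was -1.04 in the PEA pair (FDR = 0.000208) and 0.14 in the PEO pair (FDR = 0.628). JUNB was higher in CP70 (0.70, FDR = 0.00123) and PEA2 (1.72, FDR = 1.13e-08), and IER2 in PEA2 (1.80, FDR = 6.40e-08). CCND1, the cyclin D1 gene, was higher in CP70 (0.33, FDR = 0.00125) and lower in PEO4 (-0.54, FDR = 6.19e-06).

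Of 25 components of the cascade itself, 4 were higher and 3 lower in CP70. In PEA2 11 were higher and 6 lower, and in PEO4 4 were higher and 9 lower, with median log2FC of 0.12, 0.20 and -0.17 in the 3 pairs. The 7, 17 and 13 called genes of 25 stand against 39.9%, 61.9% and 41.5% of all genes. NF1, the RAS GTPase-activating protein that SPRED1 recruits, was lower in CP70 (-0.90, FDR = 2.19e-06) and in PEO4 (-1.71, FDR = 5.39e-10) and had a log2FC of 0.14 in the PEA pair (FDR = 0.283). SOS2, a RAS exchange factor, was lower in CP70 (-0.53, FDR = 0.00800) and higher in PEA2 (0.43, FDR = 0.0172) and PEO4 (0.50, FDR = 0.0117). KSR2, a scaffold, was at least 4.47-fold higher in CP70, with A2780 at or under the floor. In PEA2 it was lower (-2.30, FDR = 7.46e-05), and it was not called in the PEO pair (-0.44, FDR = 0.430). PEA2 had more of the ERK-activated kinase gene RPS6KA2 (5.15, FDR = 7.38e-09, with 2 to 7 reads in PEA1) and of the GTPase-activating protein gene RASA1 (2.62, FDR = 2.06e-11), and less of the scaffold gene KSR1 (-3.22, FDR = 6.19e-07, with 5 to 22 reads in PEA2). PEO4 had more of the adaptor genes SHC1 (1.55, FDR = 3.18e-10) and GRB2 (0.83, FDR = 7.25e-06), and less of RASA1 (-0.60, FDR = 0.00366). SHC1 was lower in PEA2 (-0.74, FDR = 2.26e-06).

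At the top of the pathway, 10 of 13 listed receptor tyrosine kinases were in the table, with 5 higher and 3 lower in CP70, 2 higher and 5 lower in PEA2, and 3 higher and 4 lower in PEO4. Called genes were 8, 7 and 7 of 10, against 39.9%, 61.9% and 41.5% of all genes. The medians were 0.24, -0.99 and -0.09. EGFR was higher in CP70 (3.08, FDR = 3.72e-10), lower in PEO4 (-2.19, FDR = 1.08e-07) and had a log2FC of -0.09 in the PEA pair (FDR = 0.744), and ERBB3 was higher in CP70 (5.30, FDR = 1.81e-08) and at least 32.9-fold higher in PEA2. Of the FGF receptors, FGFR2 was at least 4.40-fold higher in CP70 and lower in PEA2 (-3.54, FDR = 1.48e-07) and PEO4 (-1.29, FDR = 0.0111). FGFR4 was lower in CP70 (-1.40, FDR = 0.00644) and PEA2 (-4.36, FDR = 7.29e-09) and higher in PEO4 (3.10, FDR = 1.93e-06). FGFR3 was higher in PEO4 (2.55, FDR = 1.82e-05). Several of these sizes are imprecise, since the lower line held few reads. In A2780 ERBB3 had 0 to 5 reads and EGFR 7 to 30. FGFR2 had 1 to 7 in PEA2, and in PEO1 FGFR4 had 2 to 11 and FGFR3 6 to 15. The plot of the lists by pair and the map of line means show these values beside those of the 10 genes.

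**Figure D3:**
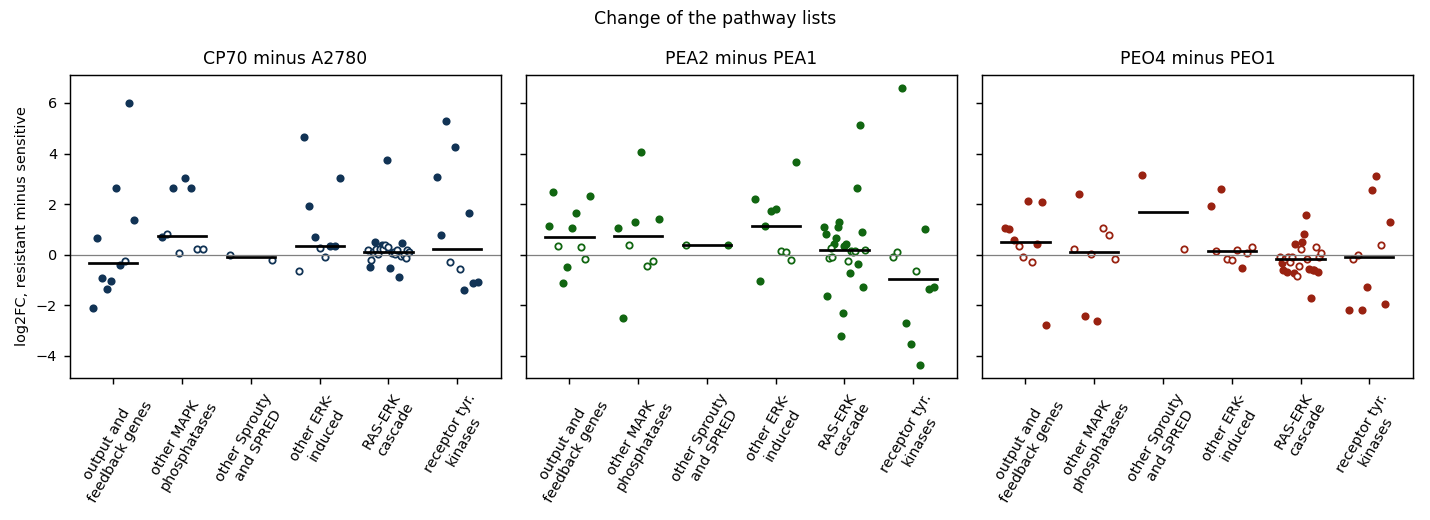
Change (vertical axis, log2FC, resistant minus sensitive) of every gene of 6 pathway lists in the 3 pairs; filled points passed an FDR below 0.05 and bars are list medians. The 10 output and feedback genes spread to both sides of 0 in each pair, with medians of -0.33, 0.69 and 0.50; genes at the read floor in a line are plotted at their fitted values.

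**Figure D4:**
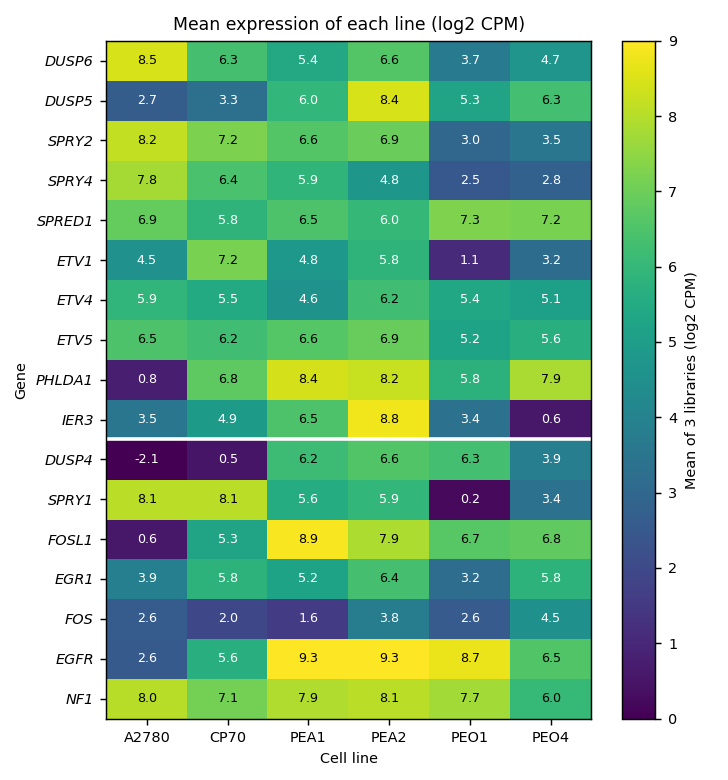
Mean log2 CPM of 3 libraries for the 10 genes (above the white line) and 7 other pathway genes (below it) in the 6 lines; colours stop at 0 and 9, and the values are printed. DUSP6, SPRY2 and SPRY4 are highest in A2780, where PHLDA1 (0.75), FOSL1 (0.60) and DUSP4 (-2.12) are lowest.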

How the data were processed

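RNA-seq values of 18 libraries, 3 from each of 6 lines, were used. The authors prepared strand-specific libraries from rRNA-depleted total RNA, counted aligned reads over the known hg19 genes using featureCounts, and used limma for normalization (Bowtie2 is also named in the submitters' processing notes). Tool versions and the filter that left 12853 genes are not given in the sources used here. The deposited values are log2 CPM, for which each count was raised by 0.5 reads and divided by a scaled library size. Whole reads were recovered from 100% of them (tolerance 0.05) and gave depths and checks.

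The log2 values were fitted with limma 3.58.1 in R 4.3.3, as 1 fit of 18 libraries with a mean per line and a variance trend. FDR is Benjamini-Hochberg over 12853 genes. A gene was called at an FDR below 0.05, and |log2FC| above 2, the study's threshold, stands beside it. Where a line had at most 3 reads in every library, the fold against it uses 3 reads and is given as "at least". Standard errors and intervals come from the same fit.

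The 10 genes and all lists were chosen with earlier results of these data known. Beyond the 10 genes, the text names at most 3 genes per list and pair, those called with the largest |log2FC|, no overlap between lines and over 10 reads in every library of the higher line. It also names the 5 genes most like DUSP6 and the average, and values of such named genes in other pairs. SPRED2 was named after its values were seen. Gene spans and exons are from GENCODE (GRCh37), and promoters from RefSeq. The calculations were tested on simulated data. Alternatives were each pair fitted alone, a filter on a mean log2 value above 0, quantile normalization, a replicate block, no variance trend, voom weights, 2 reads added to each count, |log2FC| above 1 or 2 and each library left out in turn. ATAC-seq and platinum adduct data were not analysed here.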

Additional observations from a re-analysis of the deposited data

Results flagged for a closer look

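Changes that differed between pairs of lines in a direct test (limma, FDR below 0.05, log2FC of the first pair minus that of the second) were singled out. The contrasts share libraries.

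For the PEA pair against the A2780 pair, the difference was 3.26 for DUSP6, 1.85 for DUSP5, 1.29 for SPRY2, 0.54 for SPRED1, 2.06 for ETV4, 0.55 for ETV5 and 0.95 for IER3, all with the more positive change in the PEA pair. It was -1.60 for ETV1, which was higher in both resistant lines, and -6.18 for PHLDA1, which was called higher in CP70 and not called in the PEA pair. DUSP6 and ETV4 were called in opposite directions in these pairs. The call of ETV4 in the A2780 pair was lost without the variance trend (FDR = 0.0527) and in some fits that left out a library. For ETV5 neither pair's own change was called, and the difference was not called with quantile normalization (0.40, FDR = 0.112), without the variance trend (FDR = 0.0548) or in 8 of 18 fits that left out a library.

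For the PEO pair against the A2780 pair, the difference was 3.17 for DUSP6, 1.51 for SPRY2, 1.71 for SPRY4, 0.94 for SPRED1 and 0.68 for ETV5, and it was -3.94 for PHLDA1 and -4.14 for IER3. DUSP6, SPRY2 and IER3 were called in opposite directions in these pairs. The call of SPRY2 in the PEO pair was lost with voom weights (FDR = 0.114) and with each pair fitted alone (FDR = 0.0892). PHLDA1 was higher in both resistant lines, by different amounts.

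For the PEA pair against the PEO pair, the difference was 1.47 for DUSP5, 1.95 for ETV4 and 5.09 for IER3, and it was -1.46 for SPRY4, -0.40 for SPRED1, -1.09 for ETV1 and -2.24 for PHLDA1. IER3 had the largest of these, with calls of opposite direction. The difference for SPRED1 was not called without the variance trend (FDR = 0.0613) or in 8 of 18 fits that left out a library, with FDR up to 0.0935. Levels behind several of these differences rest on few reads, namely 3 to 6 for PHLDA1 in A2780, 3 to 4 for IER3 in PEO4 and 5 to 12 for ETV1 in PEO1.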

How the results depend on the processing

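No call of the 10 genes turned its direction under any alternative. With |log2FC| above 2 the counts of called genes fell from 9, 7 and 7 to 3, 2 and 3 in the A2780, PEA and PEO pairs. Leaving out each library in turn gave 8 to 9, 7 to 8 and 6 to 8 within pairs, and 8 to 9, 7 to 7 and 6 to 7 for the differences between pairs (9, 7 and 7 as reported). The replicate block left 9, 7 and 7 genes called within pairs and changed no call of a single gene. Same-numbered libraries of paired lines deviated together little (r from -0.15 to 0.17, 3 of 9 above 0.1). This compares only the lines within a pair and includes counting noise, so it cannot tell whether such libraries shared a preparation. Of single changes within pairs, 4 calls were lost and 5 gained under the other settings, and 10 lost and 7 gained when libraries were left out, each named beside its gene in the report. Of differences between pairs, 3 and 16 were lost and 1 and 0 gained. The lost ones were ETV5 between the PEA and A2780 pairs (0.40, FDR = 0.112 with quantile normalization, also lost without the variance trend and without A2780 replicate 1 or 2, any CP70 replicate, PEA1 replicate 3 or PEA2 replicate 1 or 3, with FDR up to 0.0867) and SPRED1 between the PEA and PEO pairs (-0.40, FDR = 0.0613 without the variance trend, and up to 0.0935 without PEA1 replicate 2 or 3, PEA2 replicate 1 or 2, PEO1 replicate 1 or 2 or PEO4 replicate 1 or 2). The gained one was DUSP5 between the PEO and A2780 pairs (0.72, FDR = 0.00209 with quantile normalization). The difference for ETV1 between those pairs, not called, went from -0.51 to 0.67 with quantile normalization. That setting moved the median log2FC of all genes to -0.04, -0.10 and 0 in the A2780, PEA and PEO pairs. The cause was not tested. The filter on the mean removed 355 genes and none of the 10. Depth limits most the values at 3 to 12 reads among the 10 genes, and those of list genes at few reads.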
